A study of Mus musculus with 9 samples.

Results

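The nuclear genes of the mitochondrial respiratory chain and ATP synthase were followed in cultured group 2 innate lymphoid cells (ILC2s), lymphocytes of tissues that make type 2 cytokines such as IL-5 and IL-13. The members were all genes whose symbol begins with Nduf, Sdha, Sdhb, Sdhc, Sdhd, Uqcr, Atp5 or Cox and a digit, with Cyc1 added, and there were 100 of them among 23234 genes. By current assignments 41 belonged to complex I, 6 to complex II, 9 to complex III, 27 to complex IV and 16 to complex V, assembly factors included. Ndufa4 was counted with complex IV, and Atp5sl, now named Dmac2, with the assembly factors of complex I. The remaining 1, Cox4nb, now named Emc8, encodes a subunit of an endoplasmic reticulum complex and was caught by its symbol alone. The subunits encoded by mitochondrial DNA were not analysed here.

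The respiratory chain sits in the inner mitochondrial membrane. Complex I (NADH dehydrogenase) and complex II (succinate dehydrogenase) pass electrons to ubiquinone, complex III passes them on to cytochrome c, and complex IV (cytochrome c oxidase) passes them to oxygen. Complexes I, III and IV pump protons, and complex V, the ATP synthase, lets them flow back to make ATP. In lymphocytes this machinery supports activation and cytokine production beside glycolysis.

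The mice were wild-type C57BL/6, and the cells were taken from their fat-associated lymphoid clusters. All 3 groups received IL-33 at 10 ng/ml for 48 h, an alarmin that activates ILC2s. The first group received nothing else, the second also IFN-γ (the type II interferon) and the third also IL-27 (a cytokine of the IL-12 family), each at 10 ng/ml. There were 3 libraries per group, and the comparisons ask what each added cytokine changes in IL-33-activated cells. The labels do not say whether replicates came from separate cultures or mice, and a p-value here covers only the spread among the 9 libraries, part of which can be technical. There was no group without IL-33. For brevity the groups are called IL-33, IFN-γ and IL-27.

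Values are FPKM, fragments counted per length of transcript and per mapped fragments. This scale is meant to make genes of different length comparable within a library, which was not tested for the shortest transcripts. The depth, estimated within a set range from the smallest steps in each table, was about 870000 to 1000000 fragments, so short transcripts rest on few fragments. ILC2 markers (Gata3, Rora, Il1rl1, Klrg1 and 6 others) were all detected. Their summed level was 13650 to 21410 FPKM with IL-33, 5419 to 8834 with IFN-γ and 11550 to 12400 with IL-27, most of it from Il5 and Il13. With IFN-γ, Il5 (1656 to 3450 FPKM) and Il13 (2511 to 3348) lay below every IL-33 library, as did 8.65% of all tested genes. The other listed ILC2 markers overlapped between these groups. With IL-33 and IFN-γ, Gata3 was at 161 to 272 and 185 to 271 FPKM, and Id2 at 314 to 793 and 452 to 782. Il1rl1 was at 384 to 846 and 253.5 to 435 FPKM, and Il7r at 32.8 to 52.3 and 21.3 to 40.3. All 8 adipocyte markers, Ucp1 included, were at 0 in every library, and endothelial markers summed to at most 1.2 FPKM. T cell markers summed to 34.0 to 82.0 FPKM with IL-33, 35.9 to 83.3 with IFN-γ and 48.1 to 103 with IL-27, mostly from Cd3g, with Cd3e at no more than 2.51. B cell markers summed to 33.7 to 40.3, 20.3 to 84.8 and 33.2 to 57.0 FPKM, nearly all from Cd79b. Macrophage and dendritic markers reached 10.3, 19.5 and 17.6 FPKM with Csf1r at 0 throughout, and mast cell markers 5.7, 9.1 and 11.5 FPKM. Of 5 muscle markers only Acta1 was listed above 0. Fibroblast markers summed to 2.93 to 36.2 FPKM with IL-33, 3.94 to 86.5 with IFN-γ and 7.67 to 63.7 with IL-27, and the replicate 3 library had the highest sum in each group. The part of these cell types in the results was not tested. In such bulk samples, fewer cells of a type and less RNA per cell cannot be told apart.

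Of the 100 members, 94 averaged at least 1 FPKM in the 9 libraries and were tested. They made up 1.64% to 2.52% of the FPKM sum of a library. The most abundant member was Atp5b, the catalytic β subunit of ATP synthase, with a mean of 799 FPKM over the 9 libraries, followed by Atp5g3 at 684 FPKM, which encodes the c-ring protein. In complex IV the most abundant were Cox6a1 at 486 and Cox6b1 at 427 FPKM. Small subunits also led complex III, with Uqcr10 at 335 and Uqcrq at 326 FPKM. The highest in complex II were Sdhb, the iron-sulfur subunit, at 193 FPKM and the membrane anchor Sdhd at 128 FPKM. In complex I they were the accessory subunits Ndufa3 at 199 and Ndufc2 at 131 FPKM. Of the core subunits of complex I, Ndufs8 had the lowest mean, 33.9 FPKM. Many genes of this family have processed pseudogenes, and how shared reads were counted is not given in the sources used here, so single levels are uncertain to that extent.

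Several subunits of complex IV have a tissue-restricted isoform, and in these cells the common one was the higher. Cox6a1, Cox7a2, Cox8a and Cox4i1 had means of 486, 259, 214 and 346 FPKM over the 9 libraries. Their partners Cox6a2, Cox8b and Cox8c, of muscle, brown fat or testis, were listed at 0 in every library, as was Cox7b2, the partner of Cox7b at 87.9 FPKM. Cox7a1, the heart and muscle isoform, had a mean of 5.29 FPKM. Cox4i2 was listed between 0 and 1.8 FPKM, worth at most 1 fragment, and Ndufa4l2 at 2.6 FPKM in 1 IL-33 library and 0 in the others. The 6 members that were not tested are these 2 and the 4 listed at 0. The 3 genes Atp5g1, Atp5g2 and Atp5g3, which encode the same mature c-ring protein, had means of 193, 261 and 684 FPKM.

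**Figure D1:**
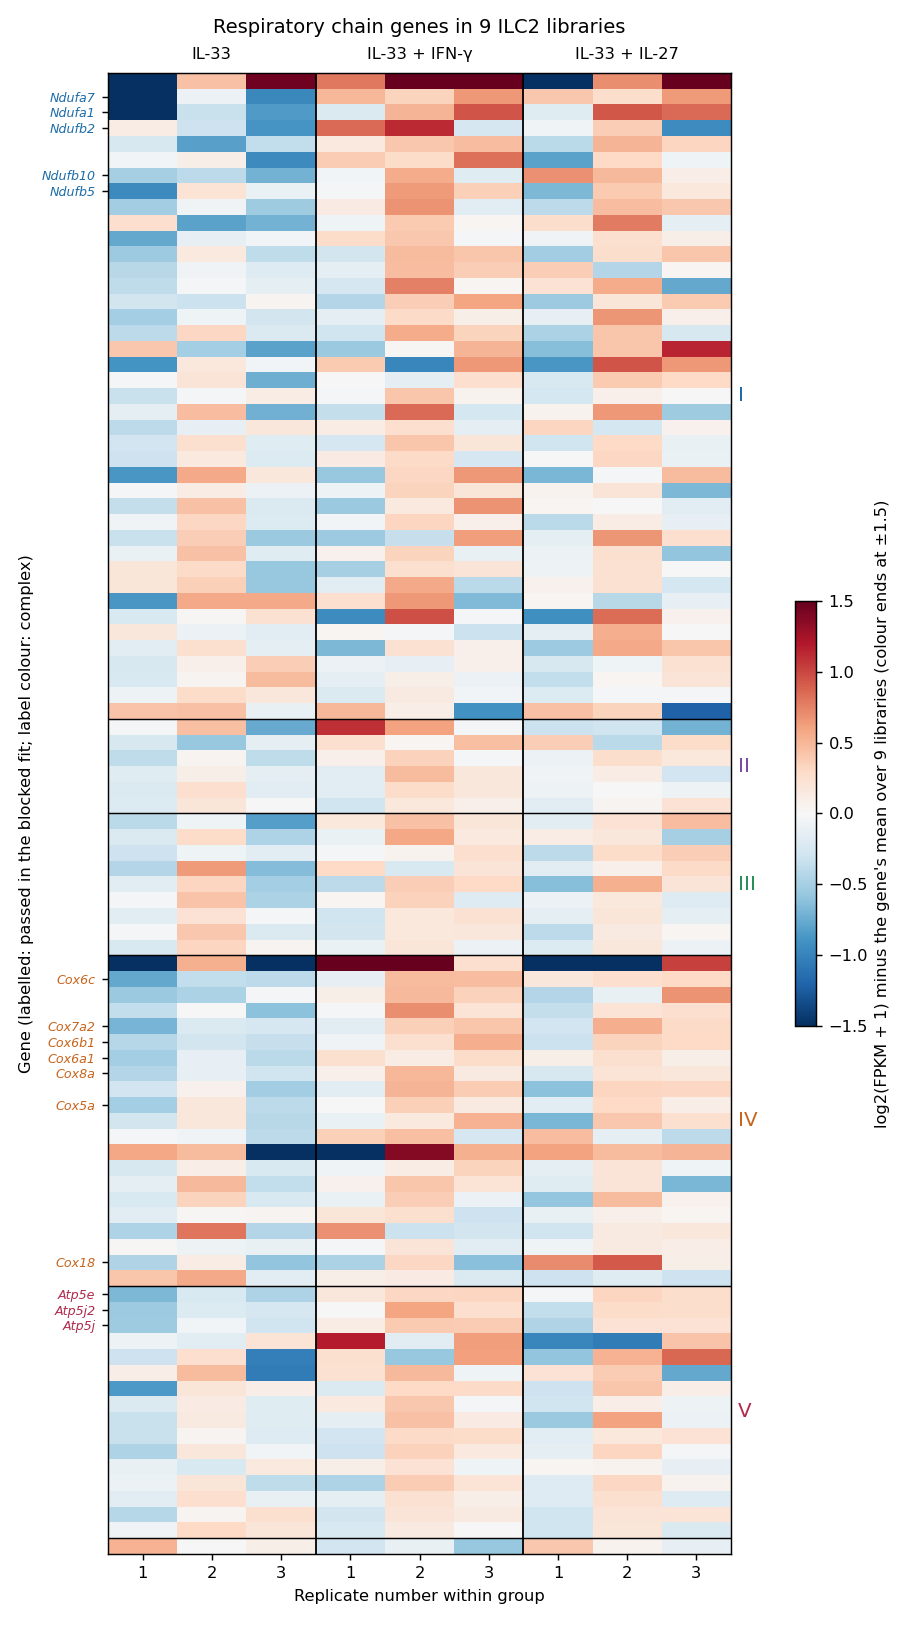
Level of the 94 tested members in each library, as log2(FPKM + 1) minus the gene's mean over 9 libraries; rows are genes sorted within each complex by the difference between IFN-γ and IL-33, columns are libraries, and the members that passed with either cytokine in the blocked fit (adjusted p under 0.05) are labelled. Blue fields gather in the IL-33 columns, most of all in replicates 1 and 3, and within each group the replicate 2 column has the highest median of members.

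With IFN-γ most members lay above IL-33, by small amounts. The summed member level was 10580, 14090 and 11010 FPKM in IL-33 replicates 1, 2 and 3, and 12610, 16520 and 15460 FPKM with IFN-γ. It was higher with IFN-γ at each replicate number, though the 2 groups overlapped because IL-33 replicate 2 lay above IFN-γ replicate 1. The median log2 fold change of the 94 tested members, on the log2(FPKM + 1) scale, was 0.26, against 0.03 for all 11014 tested genes, and 80 of the 94 lay above 0 against 52.5% of all tested genes. In the limma fit over all 9 libraries no member passed an adjusted p of 0.05, in either direction, while 2.19% of all tested genes were higher and 0.717% lower. The lowest adjusted p among members was 0.0515, for Atp5e. At an unadjusted p under 0.05 there were 18 members higher and 0 lower, against 9.35% and 6.05% of all tested genes.

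Libraries with the same replicate number deviated together from their group means, so a second limma fit carried that number as a block. In this blocked fit 14 members were higher with IFN-γ and 0 lower, or 14.9% of the 94 tested members against 6.51% of all tested genes higher and 4.66% lower. They were Ndufa1, Ndufa7, Ndufb10, Ndufb2 and Ndufb5 of complex I, Cox5a, Cox6a1, Cox6b1, Cox6c, Cox7a2 and Cox8a of complex IV, and Atp5e, Atp5j and Atp5j2 of complex V. None of complex II or III passed. The count rested on all 3 numbers. It was 7 without the number 1 libraries, 3 without number 2 and 6 without number 3. In these fits 3.15%, 1.71% and 3.0% of all tested genes were higher. Of the members called in them, 6, 3 and 4 were among the 14, and Atp5e and Ndufa1 passed in each. In all, 18 members had groups that did not overlap with IFN-γ above, against 11.9% of all tested genes, and 1 had IFN-γ below, against 8.65%. That 1 was Cox4nb, with a log2 fold change of -0.53 (limma adjusted p = 0.382). At each replicate number 48 of the 94 members were higher with IFN-γ and 4 lower, against 24.4% and 21.1% of all tested genes.

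Promoters of the family are known for sites of NRF1 and of ETS factors such as GABP, which act on many nuclear genes of mitochondria. The 250 bases before to 50 bases after each start were searched on both strands for GCGCANGCG (NRF1) and CCGGAAG (ETS), in RefSeq windows of build GRCm38.p6 found for 81 of the 100 members. A match to the first was in 25.9% of members, 16.5% of tested genes and 7.03% of all genes in the table. The second was in 27.2% of members, 22.4% of tested genes and 9.93% of all genes. At least 1 of the motifs was in 45.7% of members and 34.9% of tested genes. Of the 13 members called with IFN-γ in the blocked fit that had a window, 46.2% held a match, and of the 68 other members 45.6%. A match is a description of the letters and not of binding. For 3 of the called members the 250 bases before the start are shown, 5′ to 3′ on the gene's strand. The 50 bases after the start are not printed, and matches there are not marked. In the bases shown 1 member held both motifs, 1 the ETS motif and 1 neither, with matches in capitals:

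Cox6a1: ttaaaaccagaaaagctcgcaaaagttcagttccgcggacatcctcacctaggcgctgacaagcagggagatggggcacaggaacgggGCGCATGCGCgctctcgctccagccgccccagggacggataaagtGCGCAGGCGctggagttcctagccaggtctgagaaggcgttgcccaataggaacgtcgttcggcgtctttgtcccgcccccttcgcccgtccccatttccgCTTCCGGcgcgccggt

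Atp5e: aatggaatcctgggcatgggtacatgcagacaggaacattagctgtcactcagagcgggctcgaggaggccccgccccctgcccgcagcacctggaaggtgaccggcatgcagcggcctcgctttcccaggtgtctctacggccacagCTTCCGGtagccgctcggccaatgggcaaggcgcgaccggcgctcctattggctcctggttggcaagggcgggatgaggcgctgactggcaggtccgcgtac

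Ndufa1: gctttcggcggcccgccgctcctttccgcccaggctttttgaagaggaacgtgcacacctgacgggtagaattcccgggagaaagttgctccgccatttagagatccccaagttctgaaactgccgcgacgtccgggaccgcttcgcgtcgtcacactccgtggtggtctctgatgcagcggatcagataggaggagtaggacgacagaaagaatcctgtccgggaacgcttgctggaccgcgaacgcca

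The bases shown are chr5:115348959-115349208, chr2:174464102-174464351 and chrX:37191239-37191488 of GRCm38.p6, all on the minus strand. In Cox6a1 the NRF1 motif began 162, 161 and 117 bases before the start, the first pair being overlapping matches on opposite strands, and the ETS motif 16 bases before it. In Atp5e the ETS motif began 102 bases before the start. All 3 genes were higher with IFN-γ in the blocked fit.

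In complex I the 29 accessory subunits had a median log2 fold change of 0.36 with IFN-γ, and 26 of them lay above 0. Its 7 core subunits, which carry the flavin, the iron-sulfur clusters and the quinone site, had a median of 0.05, with 4 above 0 and none passing in either fit. Ndufa1, a small membrane subunit needed for assembly, was at 17.6, 45.1 and 31.2 FPKM with IL-33 (replicates 1, 2 and 3) and at 49.0, 81.4 and 111 FPKM with IFN-γ. The groups did not overlap. Its log2 fold change was 1.35 ± 0.42 (SE), with an adjusted p of 0.152 by limma and 0.00288 in the blocked fit. It lies at chrX:34727583-34731158 (mm9), and its values rest on about 7 to 46 fragments per library.

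Ndufa7, another accessory subunit (chr17), was at 18.3, 60.3 and 32.4 FPKM in the IL-33 libraries, against 90.9, 81.3 and 101 FPKM with IFN-γ. All IFN-γ libraries were above all IL-33 libraries, and the log2 fold change was 1.43 ± 0.35 (SE; limma adjusted p = 0.0631, blocked 0.032). Without IL-33 replicate 2, the highest IL-33 value, it passed with no block, at a limma adjusted p of 0.0116. Leaving out single libraries moved its log2 fold change between 1.02 and 1.85, and that fit gave the top of the range. Ndufb10, of the membrane arm, was at 54.3, 58.3 and 46.5 FPKM in the IL-33 libraries, against 75.0, 114 and 67.5 FPKM with IFN-γ, again without overlap (log2 fold change 0.65, blocked adjusted p = 0.0354). The membrane-arm subunits Ndufb2 and Ndufb5 passed in the blocked fit with log2 fold changes of 0.93 and 0.61, although their groups overlapped. By contrast Ndufs1, the largest iron-sulfur core subunit, was at 59.5, 76.5 and 70.9 FPKM in the IL-33 libraries, against 53.8, 69.1 and 61.1 FPKM with IFN-γ. It lay lower at each replicate number, but its log2 fold change of -0.17 ± 0.17 (SE) had a limma adjusted p of 0.712. The lowest log2 fold change in complex I was -0.36, for the assembly factor Ndufaf4 (adjusted p = 0.804).

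Ndufs5, an accessory subunit, stood out in single libraries rather than groups. It was listed at 0.00532 FPKM in IL-33 replicate 1 and at 0.00595 in IL-27 replicate 1, and between 38.3 and 136 FPKM in the other 7 libraries. Its log2 fold change of 2.59 with IFN-γ rests on that listing and had a limma adjusted p of 0.576.

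Complex II had 6 members, and 5 had a log2 fold change above 0 with IFN-γ. Sdhb was at 145.1, 195 and 145.3 FPKM in the IL-33 libraries, against 201, 241 and 186 FPKM with IFN-γ. It was higher at each replicate number, by 0.38 ± 0.18 on the log2 scale (SE; limma adjusted p = 0.37, blocked 0.0524), but the groups overlapped. Sdha, the flavoprotein that oxidises succinate, had a log2 fold change of -0.02 ± 0.19 (SE; 95% interval -0.44 to 0.41). Its assembly factors lay higher: Sdhaf1, which helps to mature the iron-sulfur subunit, had a log2 fold change of 0.67 and Sdhaf2, which helps to attach the flavin to Sdha, one of 0.55, with adjusted p-values of 0.416 and 0.353 by limma.

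In complex III 7 of 9 members lay above 0, with a median log2 fold change of 0.20. The small subunit gene Uqcr10 had the highest, 0.69 ± 0.23 (SE; limma adjusted p = 0.178, blocked 0.06). It was at 245, 310.2 and 182 FPKM in the IL-33 libraries, against 362, 441 and 366 FPKM with IFN-γ, so the groups did not overlap. The electron-carrying subunits Uqcrfs1 (the Rieske protein) and Cyc1 (cytochrome c1) had log2 fold changes of -0.04 and 0.09. The core protein gene Uqcrc2 had the lowest, -0.05 ± 0.19 (SE).

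In complex IV 12 commonly expressed genes were counted as subunits by their symbol, Cox7a2l and Ndufa4 included. All 12 had a log2 fold change above 0 with IFN-γ, from 0.10 for Cox7b to 0.78 for Cox6c, with a median of 0.51. For 10 of the 12 the value was higher at each replicate number. Cox6c was at 105, 140.1 and 137 FPKM in the IL-33 libraries, against 166, 252 and 249.6 FPKM with IFN-γ (chr15:35855641-35868001, mm9). The groups did not overlap, and the log2 fold change was 0.78 ± 0.20 (SE; limma adjusted p = 0.0742, blocked 0.00588). Without IFN-γ replicate 1, its lowest IFN-γ value, Cox6c passed with no block as well, with a limma adjusted p of 0.0305. Leaving out single libraries moved its log2 fold change between 0.65 and 0.98, and that fit gave the top of the range.

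Cox6a1, the most abundant subunit gene of the complex, was at 334, 438 and 359 FPKM in the IL-33 libraries, against 564, 518 and 581 FPKM with IFN-γ. Here too every IFN-γ library was above every IL-33 library, with a log2 fold change of 0.56 ± 0.15 (SE; limma adjusted p = 0.089, blocked 0.0195). Cox6b1, Cox7a2 and Cox8a did not overlap between groups either and had log2 fold changes of 0.59, 0.59 and 0.52, while Cox5a, at 0.41, overlapped; their blocked adjusted p-values lay between 0.00958 and 0.0424. Cox7a2l had a log2 fold change of 0.66 (limma adjusted p = 0.297, blocked 0.0544). The 7 assembly factors of complex IV had a median of 0.07, with Cox17, a copper chaperone, highest at 0.62 and Cox19 lowest at -0.27. Among the isoforms, Cox6b2 was listed at 0, 3.62 and 0 FPKM in the IL-33 libraries, against 11.8, 21.98 and 2.8 FPKM with IFN-γ, worth at most 12 fragments. Its log2 fold change of 2.64 had a limma adjusted p of 0.204.

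In complex V the 11 subunits of the membrane part, the peripheral stalk and associated proteins all had log2 fold changes above 0, with a median of 0.31. With quantile normalisation 10 of 11 did, and Atp5g3 was at -0.02. By contrast the 5 subunits of F1, its head and central stalk together, had a median of 0.07. Atp5e, the ε subunit of the central stalk, differed from the other F1 genes. It was at 218, 297 and 253 FPKM in the IL-33 libraries, against 389.8, 430.2 and 434 FPKM with IFN-γ, without overlap (chr2:174286573-174289606, mm9). Its log2 fold change was 0.72 ± 0.17 (SE; limma adjusted p = 0.0515, blocked 0.00287), and about 84 to 183 fragments lay behind each value. With a filter of 5 FPKM, upper-quartile scaling, quantile normalisation or rescaling without small RNAs its adjusted p was between 0.0283 and 0.0492 with no block.

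Atp5j2 and Atp5j, the f subunit and coupling factor 6, had log2 fold changes of 0.62 and 0.59 and groups that did not overlap, and both passed in the blocked fit (adjusted p = 0.0124 and 0.0195). The abundant catalytic gene Atp5b was at 706, 942 and 732 FPKM in the IL-33 libraries, against 718, 931 and 842 FPKM with IFN-γ. Its values overlapped throughout, and its log2 fold change was 0.07 ± 0.19 (SE), which turned to -0.01 when FPKM were rescaled without small RNAs and to -0.06 with quantile normalisation. Atp5a1, the α subunit, had -0.18 ± 0.18 (SE). Atp5g1, Atp5g2 and Atp5g3 had log2 fold changes of 0.38, 0.27 and 0.14, and none passed in either fit.

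**Figure D2:**
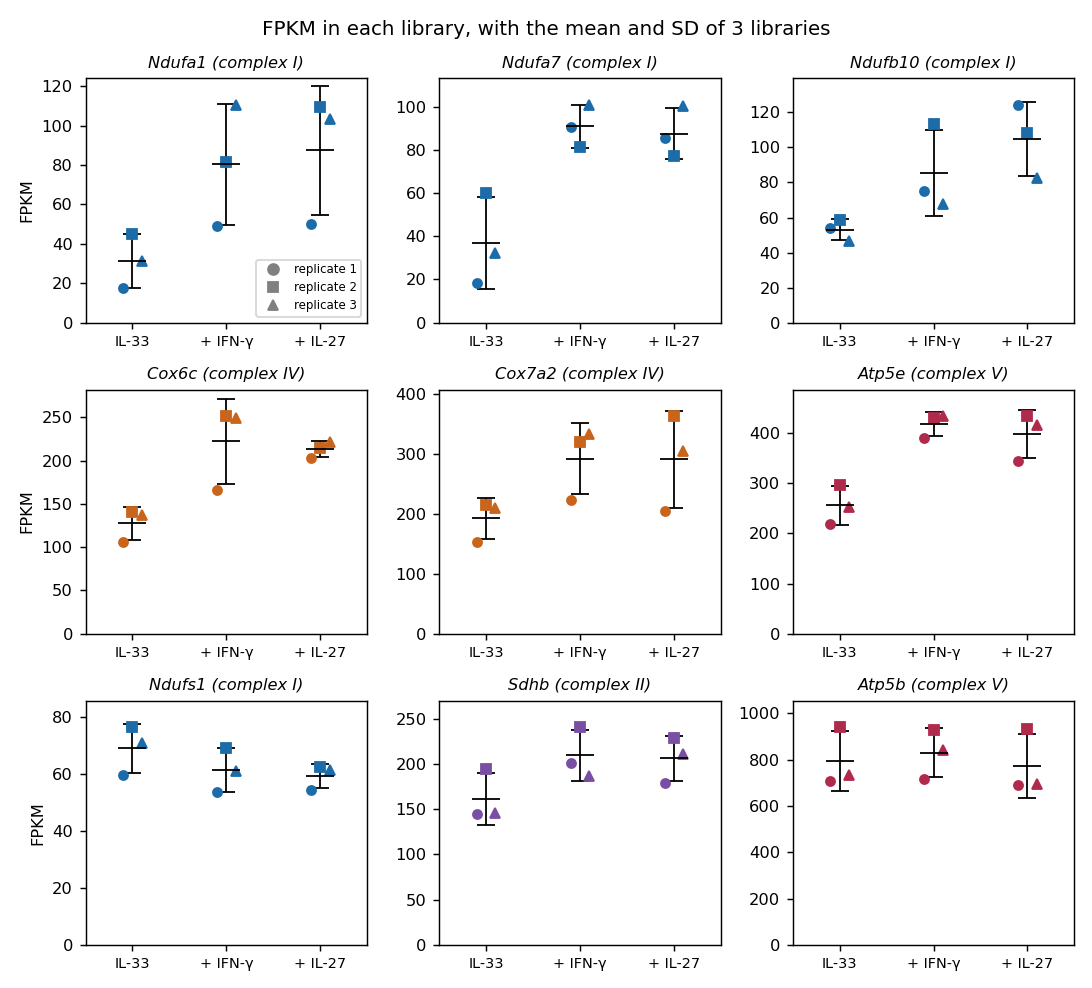
FPKM of 9 members in each library (points; the shape gives the replicate number), with the mean and SD of the 3 libraries of each group (lines). For Ndufa1, Ndufa7, Ndufb10, Cox6c and Atp5e all 6 libraries with IFN-γ or IL-27 lie above the 3 IL-33 libraries, whereas Ndufs1, Sdhb and Atp5b overlap.

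**Figure D3:**
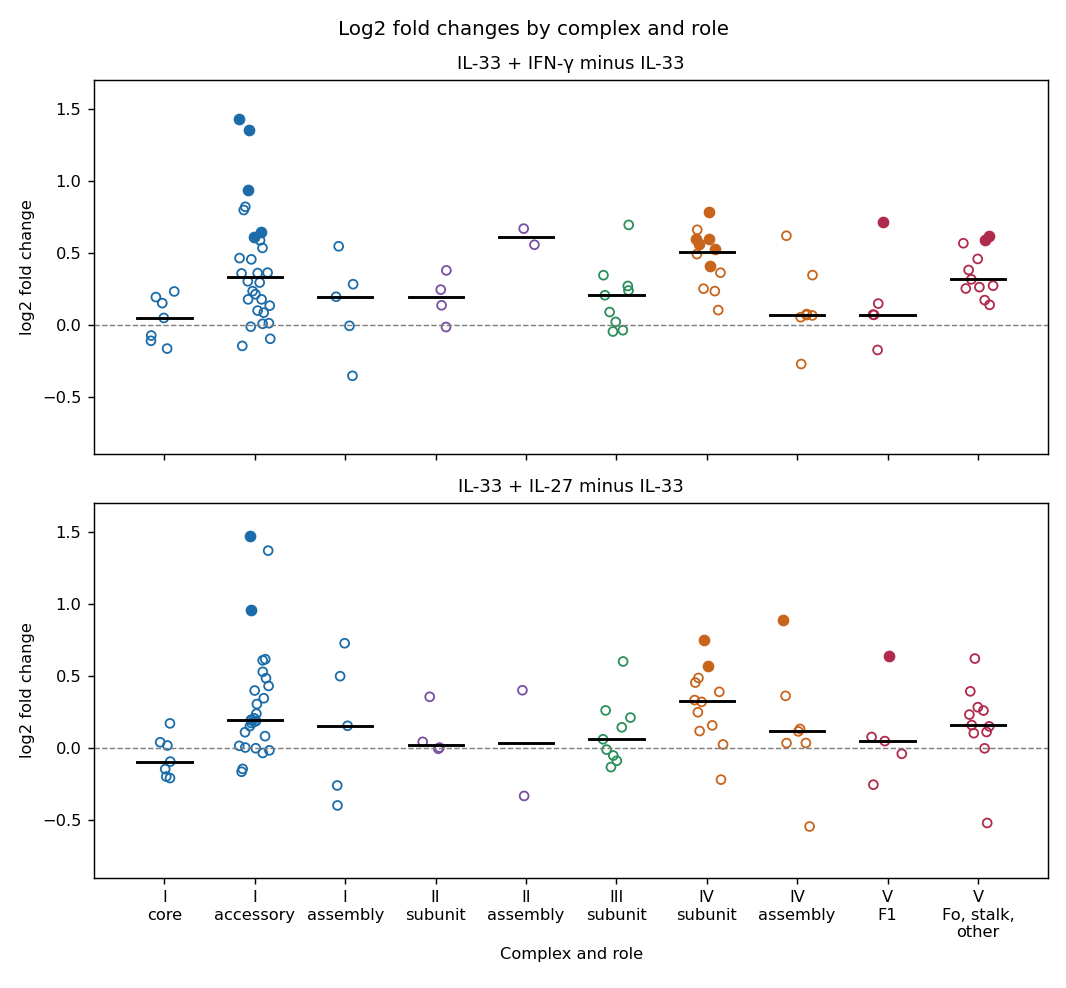
Log2 fold change of members by complex and role, with IFN-γ (top) and IL-27 (bottom) against IL-33; filled points passed in the blocked fit (adjusted p under 0.05), and lines are medians of the points drawn. Ndufs5 and the tissue isoforms Cox6b2 and Cox7a1 are not drawn; in both panels the medians of complex I accessory subunits, complex IV subunits and complex V genes outside F1 lie above those of complex I core, F1 and complex IV assembly genes, while the 2 assembly factors of complex II have the highest median in the top panel.

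Most of the members called with IFN-γ have short transcripts. Lengths came from the GENCODE annotation of mm9, which may not be the authors' annotation, and the median tested member had 763 bases against 2272 for all tested genes. With IFN-γ the 27 members of up to 600 bases had a median log2 fold change of 0.49 and all 27 lay above 0 (25 with the length correction described next, the exceptions being Ndufa2 and Cox7a1); the 263 other tested genes of that length had a median of 0.12, with 58.9% above 0. From 600 to 1000 bases the medians were 0.25 for 31 members and 0.05 for other genes. From 1000 to 2000 bases they were 0.16 for 24 members and 0.01 for other genes, and above 2000 bases -0.02 for 11 members and 0.02 for other genes. In the blocked fit with IFN-γ 8, 5, 0 and 1 members of these ranges were called higher, shortest range first. Those were 29.6%, 16.1%, 0.0% and 9.09% of members, against 12.9%, 9.58%, 6.67% and 5.49% of other tested genes. Across the 93 members with a length, Spearman's rho of length and log2 fold change was -0.54 with IFN-γ and -0.52 with IL-27, against -0.02 and -0.02 over all tested genes with a length. The genes share the same libraries and the comparisons share the IL-33 libraries, so these are descriptions. Some core and F1 subunits are among the longer transcripts (Ndufs1 2790, Atp5a1 2572 and Atp5b 1916 bases) and others are short (Atp5e 421 and Ndufs7 870.5 bases), and the parts of role and length were not tested separately.

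When each library's trend of log2 level on length over all genes was removed, a check chosen after seeing the data, the median log2 fold change of the members was 0.14 with IFN-γ and 0.09 with IL-27. The members of up to 600 bases then had medians of 0.30 and 0.22. With this correction the blocked fit called 8 members with IFN-γ, namely Atp5e, Atp5j, Cox6a1, Cox6c, Cox7a2, Ndufa1, Ndufa7 and Ndufb2, all among the 14 called without it, and the same 6 as without it with IL-27. Of all tested genes it called 5.67% higher with IFN-γ and 3.14% with IL-27. Small RNAs took up 7.003% to 17.9% of all FPKM with IL-33, 5.92% to 11.8% with IFN-γ and 3.45% to 13.6% with IL-27, highest in replicate 1 of each group. Rescaled without them, the median of members was 0.17 with IFN-γ and 0.11 with IL-27, and the blocked fit called 12 and 6 members, against 5.49% and 3.01% of all tested genes higher.

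**Figure D4:**
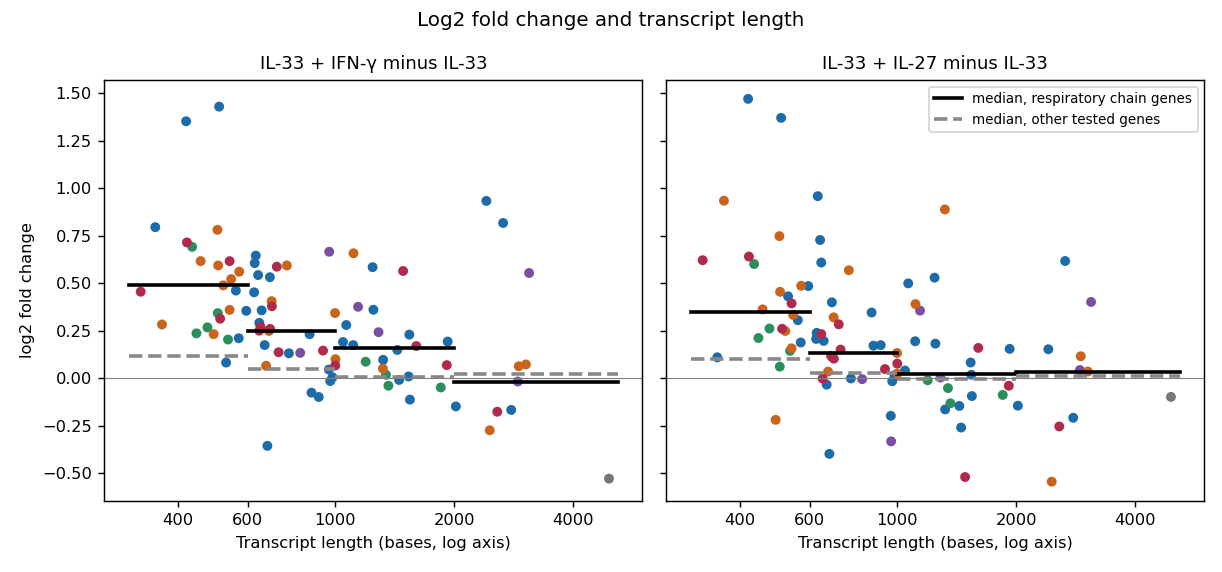
Log2 fold change against transcript length (log axis) for members, coloured by complex as in the plot by role, with IFN-γ (left) and IL-27 (right) against IL-33; solid lines are medians of members in 4 length ranges and dashed lines those of other tested genes. Ndufs5 and Cox6b2 are not drawn but count in the medians; the solid line for the shortest members lies at 0.49 (left) and 0.35 (right), above the dashed lines at 0.12 and 0.10.

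With IL-27 the members again lay above IL-33 on balance. The summed member level was 11420, 15900 and 14270 FPKM in replicates 1, 2 and 3, above IL-33 at each number. The median log2 fold change of the 94 tested members was 0.16 against 0.01 for all tested genes, and 70 lay above 0 against 51.4%. No member passed without the block, where 0.908% of all tested genes were higher and 0.118% lower, and 9 were higher and 1 lower at an unadjusted p under 0.05, against 5.89% and 3.61%. In the blocked fit 6 members were higher and 0 lower, or 6.38% of those tested against 3.37% of all tested genes higher and 1.78% lower. They were Ndufa1, Ndufb10, Cox6c, Cox7a2, Atp5e and Cox18. The count was 2 without number 1, 2 without number 2 and 1 without number 3, where 1.53%, 0.668% and 1.41% of all tested genes were higher, so that the share of members without number 3 was below that of all genes. Of the members called in these fits, 2, 1 and 1 were among the 6, and Ndufa1 passed in each. Groups did not overlap for 6 members with IL-27 above, a share of 6.38% against 8.29% of all tested genes, and for 1 with IL-27 below, against 5.72%. At each replicate number 33 members were higher and 7 lower, against 23.1% and 19.5% of all tested genes.

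Ndufa1 was at 49.98, 109.6 and 103 FPKM with IL-27, each above every IL-33 library (log2 fold change 1.47 ± 0.42, SE; limma adjusted p = 0.212, blocked 0.00341). Ndufb10 was at 125, 108 and 82.6 FPKM and had a log2 fold change of 0.96 ± 0.23 (SE; limma adjusted p = 0.121, blocked 0.0124). Ndufa7, at 85.4, 77.1 and 100.4 FPKM, did not overlap with IL-33 either, and its blocked adjusted p was 0.0573. Without IL-33 replicate 2, the highest IL-33 value, it passed with no block, at a limma adjusted p of 0.0231. Leaving out single libraries moved its log2 fold change between 0.96 and 1.80, and that fit gave the top of the range. In complex IV Cox6c was at 204, 215 and 222 FPKM, a narrow range above all IL-33 libraries (log2 fold change 0.75, blocked adjusted p = 0.0112). Cox7a2 was at 204, 364 and 305 FPKM, and its lowest library lay inside the IL-33 range (log2 fold change 0.57, blocked adjusted p = 0.018). In complex V Atp5e was at 344, 435 and 417 FPKM, all above IL-33 (log2 fold change 0.64 ± 0.17, SE; limma adjusted p = 0.147, blocked 0.00782).

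The sixth was Cox18, an inner membrane protein that helps to insert the Cox2 subunit. It was at 10.9, 16.5 and 9.8 FPKM with IL-33, at 10.8, 19.3 and 9.5 FPKM with IFN-γ and at 25.7, 29.9 and 16.3 FPKM with IL-27. IL-27 was higher at each replicate number, and its log2 fold change against IL-33 was 0.89 ± 0.33 (SE; limma adjusted p = 0.389, blocked 0.0233). Of these 6 genes it is the only one outside the 14 called with IFN-γ; the other 5 were called in both comparisons, which share the IL-33 libraries. Cox19, which works with copper delivery to complex IV, had the lowest log2 fold change with IL-27, -0.54 ± 0.22 (SE; limma adjusted p = 0.444, blocked 0.0864). It was at 43.8, 48.5 and 28.8 FPKM in the IL-33 libraries, against 25.93, 28.4 and 25.9 FPKM with IL-27, and these groups did not overlap.

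By role, IL-27 gave a median log2 fold change of 0.20 for accessory and -0.09 for core subunits of complex I. For complex IV subunits it was 0.33, with 11 of 12 above 0, and for complex II and III members 0.02 and 0.06. Sdhb, at 179, 228 and 212 FPKM, had 0.36 ± 0.18 (SE; limma adjusted p = 0.602), and Uqcr10, at 287, 377 and 447 FPKM, 0.60 ± 0.23 (SE; adjusted p = 0.414). The F1 subunits had a median of 0.05 and the other complex V genes one of 0.16. The lowest values by complex were -0.40 for Ndufaf4, -0.33 for Sdhaf1, -0.13 for Uqcrfs1 and -0.52 for Atp5s, a coupling factor, and none of these passed. In complex II Sdhaf2 was highest at 0.40, and in complex IV Cox7a1 at 0.94, a value that rests on at most 4 fragments and on the 0 in IL-33 replicate 3.

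Compared directly, no member passed between IFN-γ and IL-27. The median log2 fold change of IFN-γ against IL-27 was 0.08, against 0.01 for all tested genes, and 71 of the 94 lay above 0 against 52.0%. Leaving out 1 library moved this median between -0.02 and 0.21, so its sign depends on single libraries. The absence of calls held with and without the block; over all tested genes the shares called were 0.0% without it in both directions, and 0.0545% higher and 0.127% lower with it. At an unadjusted p under 0.05 there were 3 members higher with IFN-γ (Sdhaf1, Cox6b2 and Atp5s) and 1 lower (Cox18), against 2.66% and 1.73% of all tested genes. Sdhaf1 was at 59.6, 42.0 and 26.7 FPKM with IFN-γ and at 21.6, 21.98 and 16.4 FPKM with IL-27. It was the only member whose groups did not overlap, against 5.5% of all tested genes with IFN-γ above and 4.03% below, and its log2 fold change was 1.00 ± 0.35 (SE; limma adjusted p = 1.0, blocked 0.146). Cox18 had -0.84 ± 0.33 (SE; blocked adjusted p = 0.124). Elsewhere the lowest values were -0.35 for Ndufa2, -0.06 for Sdha and -0.17 for Atp5k, and in complex III all 9 lay above 0, from 0.01 for Uqcrh to 0.28 for Uqcrq, but 8 did with upper-quartile scaling, 7 without small RNAs and 6 with the length correction, where Uqcrh, Uqcr11 and Uqcrb were lower. For the 5 genes called with both cytokines the 95% intervals of the direct difference included 0, for example -0.29 to 0.44 for Atp5e and -0.41 to 0.48 for Cox6c on the log2 scale.

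Lists of other mitochondrial genes had medians close to or below 0. These lists were not matched to the members by length, and the part of length was not tested. Some of their transcripts are long, such as those of Pdha1 (2848 bases), Cs (2828) and Ogdh (4090). The 11 members above 2000 bases had a median of -0.02 with IFN-γ as well. Of 14 electron carriers and coupling genes, 6 lay above 0 with IFN-γ and 4 with IL-27, against 52.5% and 51.4% of all tested genes. Their medians were -0.04 and -0.09 on the log2 scale. None passed without the block. With it Vdac1, a channel of the outer membrane, was lower with both: it was at 258, 242 and 276 FPKM with IL-33, at 204, 192 and 183 with IFN-γ and at 192, 187 and 183 with IL-27. The groups did not overlap, as for 8.65% of all tested genes with IFN-γ below and 5.72% with IL-27 below. The blocked adjusted p-values were 0.0267 and 0.0297, in a fit where 4.66% and 1.78% of all tested genes were lower. The carriers Slc25a5 and Slc25a3, for ADP/ATP and phosphate, had log2 fold changes of -0.05 and -0.10 with IFN-γ. Among the shorter transcripts of this list, Atpif1 (500.5 bases) had 0.45 and Ucp2 (743 bases) 0.39 (limma adjusted p = 0.322 and 0.361). Vdac2 (956 bases) had 0.17 and Etfb (868 bases) -0.17. The Ucp2 groups did not overlap, as for 11.9% of all tested genes with IFN-γ above. Among 16 genes of pyruvate dehydrogenase and the TCA cycle, none passed in either fit, 5 lay above 0 with IFN-γ and 3 with IL-27, and the medians were -0.06 and -0.11. Mdh2 and Cs, the most abundant of these, had -0.05 and -0.21 with IFN-γ.

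Of 23 assembly factors outside the family 16 were tested, with medians of -0.07 with IFN-γ and -0.14 with IL-27. Only Nubpl, which delivers iron-sulfur clusters to complex I, was called, higher with IFN-γ in the blocked fit (adjusted p = 0.0483). It was at 1.03, 4.71 and 0 FPKM in the IL-33 libraries, against 5.11, 6.67 and 4.9 FPKM with IFN-γ. These values rest on about 0 to 13 fragments per library, and without the block its limma adjusted p was 0.216. Of all tested genes 6.51% were higher with IFN-γ in the blocked fit. Tmem70 and Atpaf2, which assist ATP synthase assembly and were the most abundant of the list, had log2 fold changes of -0.05 and -0.09. Of 12 regulators of mitochondrial biogenesis 11 were tested and none passed; their medians were -0.23 and -0.04, and Yy1 and Gabpb1, the most abundant, had -0.25 and -0.23 with IFN-γ. The highest of the list with IFN-γ were Ppargc1b at 1.11 (limma adjusted p = 0.147, blocked 0.0622; at most 8 fragments), whose groups did not overlap, and Tfb1m at 0.74 (adjusted p = 0.463), and the lowest was Polrmt at -0.72. The 10 genes of coenzyme Q synthesis had medians of 0.03 and -0.05, and none passed; Coq7 and Coq2 had log2 fold changes of 0.01 and 0.67 with IFN-γ (limma adjusted p = 0.995 and 0.261).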

How the data were processed

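RNA was isolated with an Allprep micro kit and sequenced as TruSeq v2 low sample libraries, per the labels' protocols. Bowtie2 2.1.0, TopHat2 2.0.8, Cufflinks 2.1.1 and build mm9 are named in the submitters' processing notes; the annotation is not given in the sources used here. The deposited tables hold 1 value per gene and library, taken to be the authors' FPKM because Cufflinks is named and the values are decimal, never negative and on a per-length scale; the tables do not name the unit. The replicate 3 tables hold 1 decimal.

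The 11014 genes that averaged 1 FPKM or more were tested on log2(FPKM + 1) with limma 3.58.1 (R 4.3.3; 1 fit over 9 libraries, eBayes with trend, two-sided, Benjamini-Hochberg adjustment over all tested genes of a comparison, threshold 0.05). The script was tested on simulated data. Fold changes on this scale understate those of low genes. The labels number the libraries 1 to 3 in each group. Over the tested genes the deviations from group means correlated at 0.128 to 0.367 for the 9 pairs of libraries with the same number. For the 18 pairs with other numbers they correlated at -0.298 to -0.0251, and equal numbers were therefore treated as pairs. A gene's deviations sum to 0 within each group, so positive values for equal numbers go with negative ones for other numbers. The negative range is therefore not separate evidence of pairing. The blocked fit adds the replicate number to the model. Over the members alone the 9 pairs with the same number ranged from 0.0444 to 0.707 and the 18 with other numbers from -0.642 to 0.368. These ranges overlap, so the pairing is less clear in the members than over all tested genes.

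Depth was estimated from the steps between low FPKM values and GENCODE vM1 transcript lengths, and is approximate. The peak was looked for within a set range, so the estimate could not fall outside it. In the replicate 3 tables, with 1 decimal, small steps are blurred. Fragment numbers are FPKM multiplied by this depth and the annotated transcript length, and are approximate too. Coordinates and lengths are from GENCODE vM1 (mm9); Ndufb8 matched more than once and has none. Members were named in the text if they passed in any fit, were among the 2 most abundant or had the highest or lowest change in a complex, or were isoforms; others named were chosen after their values were seen. The members and lists were chosen with earlier results of these data known. Alternatives covered pseudocount, filter, scaling, block, groups in the fit, transcript length and left-out libraries. Python 3.11.15, pandas 2.3.3, numpy 2.4.6, scipy 1.17.1 and matplotlib 3.10.9 were also used.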

Additional observations from a re-analysis of the deposited data

How the results depend on the processing

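The number of members called with IFN-γ against IL-33 was 0 without a block and stayed 0 with other pseudocounts, with no filter, with the 2 groups fitted alone, with the length correction and without the replicate 3 libraries. It was 1 with a filter of 5 FPKM or upper-quartile scaling, 2 with quantile normalisation or rescaling without small RNAs, and 0 to 1 when single libraries were left out. With the replicate block it was 14, and 13 with upper-quartile scaling, 12 without small RNAs, 8 with the length correction, and 7, 3 and 6 without the libraries numbered 1, 2 and 3; of all tested genes 6.51%, 6.08%, 5.49%, 5.67%, 3.15%, 1.71% and 3.0% were higher in these fits. With IL-27 the count was 6 with the replicate block, also with upper-quartile scaling, without small RNAs or with the length correction. Quantile normalisation was not combined with the block. The blocked count was 2, 2 and 1 without numbers 1, 2 and 3, where 1.53%, 0.668% and 1.41% of all tested genes were higher. In the blocked fits of 9 libraries 3.01% to 3.37% were higher. Without a block the count was 0 to 1 when single libraries were left out, and 0 in every other setting. In the direct comparison every setting gave 0 members. The median log2 fold change stayed above 0 in each setting that kept all libraries, from 0.139 to 0.256 with IFN-γ and from 0.086 to 0.16 with IL-27. Leaving out 1 library moved it between 0.158 and 0.41 with IFN-γ, 0.0168 and 0.291 with IL-27, and -0.023 and 0.208 in the direct comparison.

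Changes of sign concerned members that passed in no fit, and their cause was not tested. With IFN-γ the log2 fold change of Atp5b was -0.0138 without small RNAs, with and without the block, and -0.0572 with quantile normalisation; that of Sdha was 0.00765 with quantile normalisation and 0.0253 in the blocked fit without number 1. Against IL-27, Uqcrh with IFN-γ was at -0.0247 without small RNAs, -0.00541 with upper-quartile scaling and -0.0696 with the length correction, in each case with and without the block, and at -0.169 in the blocked fit without number 1; Atp5k was at 0.296 in the blocked fit without number 2. Leaving out single libraries turned the sign within these ranges: Atp5b -0.0166 to 0.199, Sdha -0.114 to 0.123, Uqcrc2 -0.184 to 0.0879 and Ndufaf4 -0.657 to 0.049 with IFN-γ; Ndufaf4 -0.692 to 0.137, Uqcrfs1 -0.266 to 0.0434 and Cox7a1 -5.5e-05 to 1.43 with IL-27; Sdha -0.156 to 0.0790, Atp5k -0.593 to 0.166 and Uqcrh -0.23 to 0.149 in the direct comparison. At about 1000000 fragments per library, values of short or low members rest on few fragments, such as 2 to 9 for Ndufaf4, while those of Atp5b rest on 1180 to 1797; the part of depth in these changes was not tested.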
